A study of Glycine max with 30 samples.

Results

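Late maturation embryos of soybean (Glycine max, cultivar Williams 82) were examined for the places where trimethylated lysine 4 of histone H3 (H3K4me3) and trimethylated lysine 27 (H3K27me3) lie together or apart. The 2 lists of this stage held 41536 H3K4me3 peaks and 17345 H3K27me3 islands, of 231124 peaks and 88315 islands in the lists of all 5 stages. The 867 islands with the lowest ratio of ChIP reads to control reads (the lowest 5%) were dropped, which left 16478. The last island dropped and the first one kept both had a ratio of 0.663, which is a fold over control of 1.26 on the authors' scale. All remaining islands had a false discovery rate (FDR) of at most 0.05 in the deposited list, where 474 of the islands before this step did not.

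Chromatin immunoprecipitation and sequencing was applied to embryos from fully yellow seeds of 230 to 500 mg. The 6 libraries of this stage, of 30 in all, were 2 biological replicates each of H3K4me3, H3K27me3 and total H3, the control. The other stages, used here for comparison, were cotyledon-stage embryos (seeds of 2.5 to 3.5 mm), early maturation embryos (6 to 7 mm), mid-maturation embryos (200 to 250 mg) and seedlings of 8 days, all of the same cultivar. Late maturation tissue was ground frozen and fixed on ice for 15 minutes with its nuclei taken from a gradient, whereas the other tissues were fixed for 10 minutes under vacuum, so that stage and preparation cannot be told apart. Each list serves both replicates of its stage and mark, so every value below stands for 1 list, has no replicate error, and differences between classes or stages were not tested. Unless stated otherwise, intervals in brackets are 95% intervals that cover counting error only, and neighbouring regions are not independent. Embryo tissue was taken as labelled, since region lists without gene names hold no marker levels.

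In plants, H3K4me3 is placed by Trithorax-type methyltransferases around the start of genes that are transcribed or ready for transcription. H3K27me3 is placed by Polycomb repressive complex 2 over the bodies of genes kept silent in a tissue or stage, and in Arabidopsis it is needed to silence regulators of seed maturation after germination. Both marks at one place can mean that they share nucleosomes, that the alleles of one cell differ, or that some cells of the tissue carry one mark and other cells the other. Lists of bulk tissue do not separate these cases.

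Most H3K4me3 peaks of late maturation embryos lay outside H3K27me3 islands, which covered only 98.2 Mb in all. Within 5 kb of an end, islands held 62.6 to 84.5 peak midpoints per Mb, above the average of 43.7 over the chromosomes. Island sequence farther in was not counted. The average includes gaps above 50 kb between islands, with 33.5 per Mb over 684 Mb. Nearer to islands, at 2 to 5 and 5 to 10 kb beyond an end, there were 65.1 and 70.2 per Mb. A peak was called inside when it lay wholly in an island with at least 500 bp of island on both sides, at the border when any of its bases lay within 500 bp of an island end on either side, and outside otherwise. Inside were 4471 peaks, 10.8% of the list (10.5 to 11.1). At a border were 2895 peaks, 6.97% (6.73 to 7.22). Outside were 34170 peaks, 82.3% (81.9 to 82.6), of which 77 lay on scaffolds that carried no island. Counting any shared base, 7086 peaks (17.1% of the peaks) touched an island, and 5355 islands (32.5% of the islands, 31.8 to 33.2) held at least 1 peak. By length, 12.8% of the bases under peaks were in islands, and 4.72% of the bases in islands were under peaks.

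The border peaks were mostly on the island's side of the end. Of the 2895, 1538 lay in the island with their nearer edge under 500 bp from its end, 1057 crossed an end, and 280 lay beyond it. A further 19 covered a whole island and 1 joined a pair of islands. The peaks that crossed an end had a median width of 866 bp and a median score of 72.2, and those beyond the end 818 bp and 68.3. Those on the inner side were narrower and scored lower, at 620 bp and 25.7.

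Peaks inside islands were narrower than those outside. The median width was 508 bp inside (494 to 524), 732 bp at borders (711 to 753) and 879 bp outside (875 to 883). The middle 50% of widths ran from 313 to 786 bp inside, from 458 to 1042 bp at borders and from 621 to 1103 bp outside, so the classes overlapped widely. Peaks narrower than 300 bp made up 22.9% of inside peaks, 9.71% of border peaks and 7.29% of outside peaks. Peaks of at least 1000 bp made up 15.0%, 28.1% and 35.2% in the same order. The widest inside peak had 3112 bp, and the widest outside peak 6246 bp.

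Inside peaks also had the lowest scores, which are the authors' own values, of unstated meaning, and serve here only to rank peaks within the list. The median score was 13.1 inside (12.5 to 13.7), 42.5 at borders (38.7 to 45.8) and 75.1 outside (74.1 to 76.1). Width and score went together within each class, with a Spearman's rho across peaks of 0.787 inside, 0.774 at borders and 0.731 outside, where peaks are not independent replicates. At like scores the widths of inside and outside peaks were close. In the lowest 10% of scores the median width was 275 bp both inside and outside, in the fourth 10% it was 733 bp in both, and in the highest 10% it was 1340 bp inside and 1242 bp outside. Over the higher-scoring 50% of the list, inside peaks were no longer narrower: the median inside was 31.0 bp above that outside. The limits of this difference, taken from the limits of both medians, were -16.0 to 92.0.

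**Figure D1:**
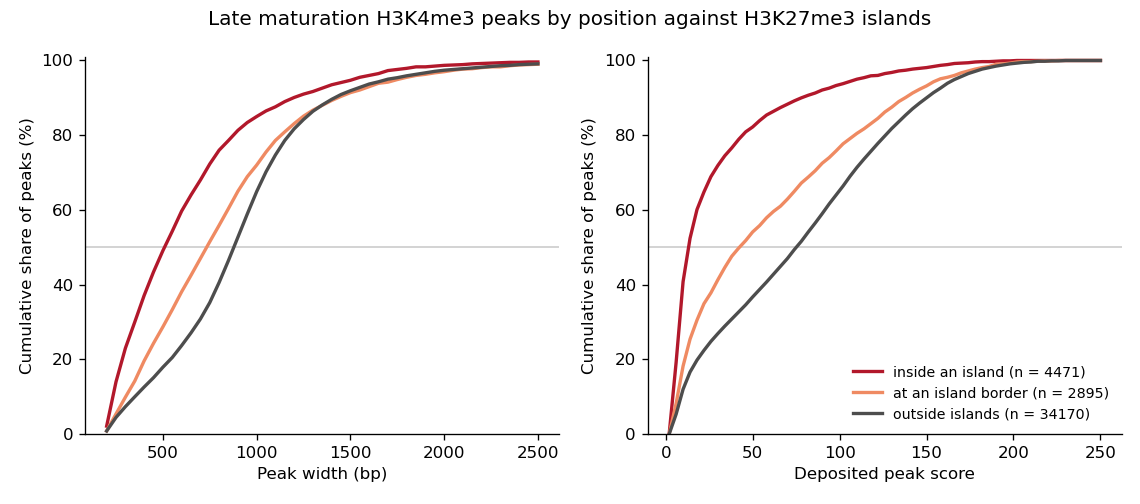
Cumulative share of late maturation H3K4me3 peaks against peak width in bp (left) and deposited score (right), for peaks inside islands (red), at island borders (orange) and outside islands (grey). The curves cross the 50% line at the medians, 508, 732 and 879 bp and scores of 13.1, 42.5 and 75.1, with the inside curve farthest to the left.

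The share of peaks inside islands went down with the score. It was 29.1% (27.7 to 30.5) in the lowest 10% of scores, 24.8% in the next, 12.7% in the fourth, 4.17% in the sixth, and 2.24% (1.83 to 2.73) in the highest 10%. Of all inside peaks, 50.1% belonged to the lowest 20% of scores and 87.1% to the lower-scoring 50% of the list. The share at borders moved less, from 7.90% in the lowest 10% through 9.58% in the fourth to 5.32% in the highest. Above the fifth 10%, border peaks therefore outnumbered inside peaks.

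**Figure D2:**
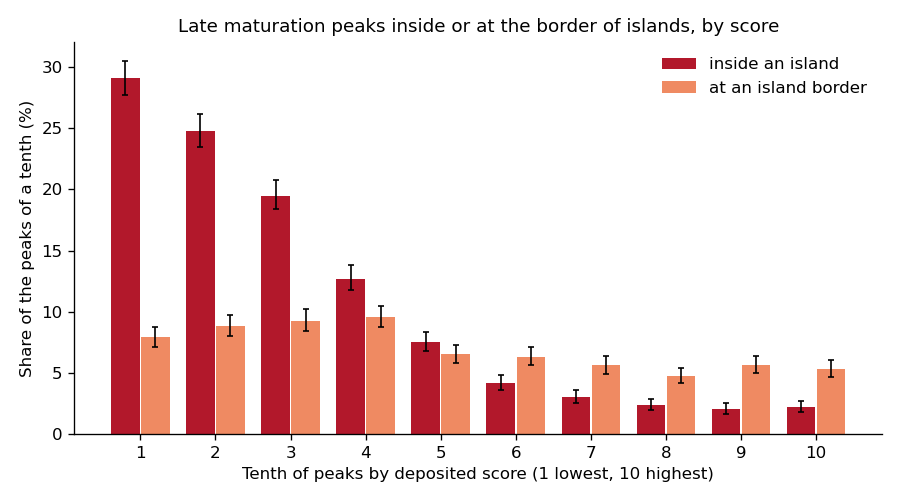
Share of late maturation H3K4me3 peaks inside islands (red) and at island borders (orange) in each 10% of the list by deposited score, from lowest (1) to highest (10); bars are shares in percent and lines their 95% Wilson intervals. The inside share goes from 29.1% at the left to 2.24% at the right, and the border share from 7.90% to 5.32%.

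High-scoring peaks inside islands were more frequent in the late maturation list than in the others. Inside an island of the same stage were 13 of the 4425 highest-scoring peaks (the top 10%) at the cotyledon stage, 8 of 4476 in early maturation, 2 of 4770 in mid-maturation, 93 of 4154 in late maturation and 4 of 5290 in seedlings. In percent this was 0.294 (0.172 to 0.502), 0.179 (0.0906 to 0.352), 0.0419 (0.0115 to 0.153), 2.24 (1.83 to 2.73) and 0.0756 (0.0294 to 0.194). The late maturation interval lay above the other 4. In the lowest 10% of scores the 5 shares were close together, at 30.4%, 26.7%, 32.6%, 29.1% and 26.4% in the order of the stages. With the islands limited to the 50% of each deposited list with the higher ratio of ChIP to control reads, a setting added after seeing the data, the top shares were 0.158%, 0.112%, 0.0419%, 1.08% and 0.0378%. The late maturation share was again the highest, and the difference was not tested against replicates. The island lists differ in their limit. The lowest fold over control kept was 1.44, 1.76, 1.59, 1.26 and 1.34 in the order of the stages, lowest at late maturation. Islands around the 93 late maturation peaks had a median ratio of 1.22 and 69.4 control reads per kb. The part of these limits was not tested.

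Over all scores, the shares of the classes in the late maturation list lay within the range of the other stages. Inside peaks were 12.4% at the cotyledon stage, 10.3% in early maturation, 11.9% in mid-maturation, 10.8% in late maturation and 12.0% in seedlings. Border peaks were 9.17%, 6.73%, 7.19%, 6.97% and 10.0% in the same order. Inside peaks were narrower than outside peaks at each stage, with medians of 472 and 1026 bp at the cotyledon stage, 568 and 1079 bp in early maturation, 542 and 1018 bp in mid-maturation, 508 and 879 bp at late maturation, and 437 and 1002 bp in seedlings. The late maturation median of outside peaks, 879 bp, was the lowest of these, while that of inside peaks lay within the range of the other stages. The shortest peak listed ran from 124 bp in seedlings to 197 bp at mid- and late maturation, so the lower limit of width differed between lists.

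Around the ends of islands, peaks were dense just within and sparse just beyond. Peak midpoints were counted per Mb of sequence at each distance from the nearest island end, and the average over the chromosomes was 43.7 per Mb. Within islands there were 62.6 midpoints per Mb at 2 to 5 kb from an end, 73.6 at 0.5 to 2 kb and 84.5 under 0.5 kb. Narrow islands have no sequence at 2 to 5 kb from an end, so these values mix distance with island width. Beyond the end there were 19.8 per Mb within 0.5 kb, 48.2 at 0.5 to 2 kb, 65.1 at 2 to 5 kb and 70.2 at 5 to 10 kb. In steps of 250 bp the highest value, 107 per Mb from 851 midpoints, stood 250 to 500 bp within the end, and the lowest, 14.6 per Mb from 116 midpoints, 250 to 500 bp beyond it. The step at the end differed in size between the lists. Under 0.5 kb within and beyond the end there were 73.9 and 30.7 per Mb at the cotyledon stage, 77.7 and 37.3 in early maturation, 103 and 18.1 in mid-maturation, 84.5 and 19.8 in late maturation, and 148 and 15.7 in seedlings. At 2 to 5 kb within islands, the densities of the 5 stages in this order were 72.6, 76.6, 107, 62.6 and 121 per Mb, lowest at late maturation. These differences between stages were not tested, and island widths also differed between the lists.

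**Figure D3:**
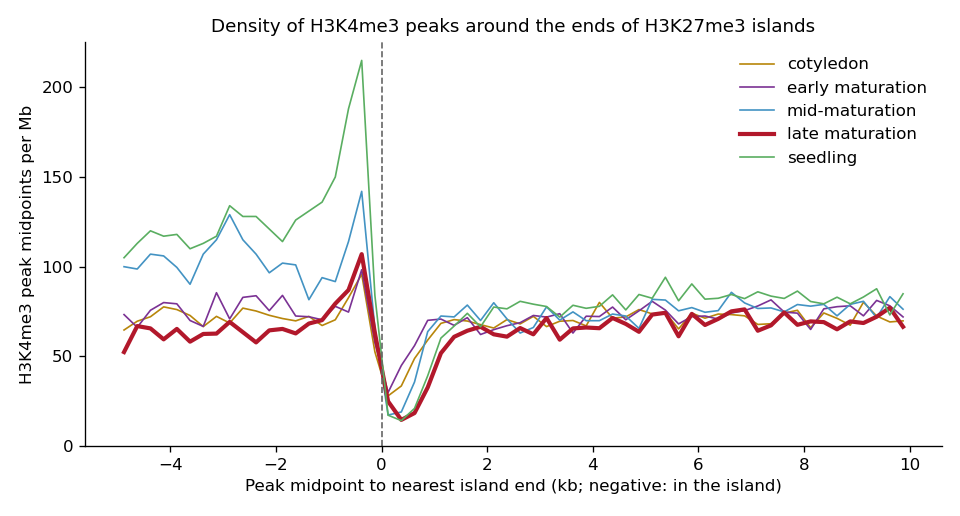
H3K4me3 peak midpoints per Mb against the distance of the midpoint from the nearest H3K27me3 island end in kb (negative values lie in the island), in steps of 250 bp, for the cotyledon stage (brown), early maturation (purple), mid-maturation (blue), late maturation (red) and seedlings (green). Each line has a maximum just within the end, 107 per Mb at late maturation, and a minimum under 0.5 kb beyond it.

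Gaps between neighbouring islands held few peaks when they were short. Of the 2081 late maturation gaps of up to 1 kb, 10 held a peak midpoint, 0.481% (0.261 to 0.882). Of the 1678 gaps of 2 to 5 kb it was 117, 6.97%, and of the 5574 gaps of 10 to 50 kb it was 4069, 73.0%. Per Mb of gap this was 5.52, 21.2 and 74.5 midpoints. In gaps above 50 kb, which made up 684 Mb, it was lower again, at 33.5. For gaps of 2 to 5 kb the other stages had 42.7 midpoints per Mb at the cotyledon stage, 48.5 in early maturation, 41.5 in mid-maturation and 31.6 in seedlings, all above the 21.2 of late maturation.

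Outside peaks lay a median of 15.9 kb from the nearest island (15.7 to 16.2), over the 34093 with an island on their chromosome. The middle 50% of distances ran from 6.65 to 35.1 kb, and the longest was 2.56 Mb. Under 5 kb lay 18.9% of them, under 10 kb 35.7% and under 50 kb 83.9%. The median distance was 11.6 kb at the cotyledon stage, 17.6 kb in early maturation, 16.7 kb in mid-maturation and 14.9 kb in seedlings. Width and score of outside peaks varied little with distance: medians were 847 bp and 67.8 at 0.5 to 2 kb, 889 bp and 75.0 at 5 to 10 kb, and 856 bp and 72.5 beyond 50 kb.

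Of the 16478 islands, 11123 (67.5%) held no peak, 4081 held 1, 955 held 2, and 319 (1.94%) held 3 or more. The most in 1 island was 11. Islands with a peak held 1.32 on average. Islands with a peak were wider, with a median of 6200 bp (6000 to 6400) against 3600 bp without one (3600 to 3600), and the middle 50% ran from 3400 to 10800 bp with a peak and from 2200 to 6200 bp without. Median width was 5200 bp with 1 peak, 8600 bp with 2 and 13400 bp with 3 or more. The share of islands with a peak was 19.4% among those up to 1 kb, 22.5% at 2 to 4 kb, 34.8% at 4 to 8 kb, 49.2% at 8 to 16 kb and 65.8% above 16 kb. Peaks per 10 kb of island went the other way, from 0.843 at 2 to 4 kb to 0.521 above 16 kb. Peaks reaching over an island's end were counted whole here, which by construction raises this value more in narrow islands. Across islands, Spearman's rho of width with the number of peaks was 0.296 and with the ratio of ChIP to control reads 0.452, both over the same 16478 islands of 1 list.

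The strength of H3K27me3 was taken as the ratio of ChIP reads (column 4 of the list) to control reads (column 5), and the authors' fold is 1.90 times this ratio. Islands with an H3K4me3 peak had a median ratio of 1.30 (1.28 to 1.31) and islands without one 1.25 (1.24 to 1.26), a difference of 0.0492 between the medians. This small difference did not keep its direction. It was -0.00189 with the islands as deposited, -0.138 with the higher-scoring 50% of peaks, and -0.0443 among islands of 2 to 10 kb, whose widths differ less.

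Within each of 6 classes of width, islands with a peak had the lower median ratio. It was 0.962 with a peak and 1.02 without among islands up to 1 kb, and 0.941 and 1.13 at 1 to 2 kb. It was 1.00 and 1.13 at 2 to 4 kb, 1.26 and 1.34 at 4 to 8 kb, 1.51 and 1.63 at 8 to 16 kb, and 1.76 and 1.83 above 16 kb. The intervals of the pair did not overlap in any class, and were nearest above 16 kb (1.72 to 1.78 with a peak and 1.79 to 1.87 without). The ratio also went up with width in both kinds of island, from 1.00 to 1.76 and from 1.13 to 1.83 between the class of 2 to 4 kb and that above 16 kb.

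Over all widths, both read counts behind this ratio were higher in islands with a peak. There, islands with a peak had a median of 82.2 ChIP reads per kb (81.6 to 83.0) and islands without one 66.4 (66.0 to 66.9). Control reads per kb were 61.7 (61.2 to 62.1) with a peak and 52.8 (52.5 to 53.0) without. In each of the 6 classes of width, the factor of the control was above that of the ChIP reads. At 4 to 8 kb, ChIP reads per kb were 1.14 times and control reads per kb 1.20 times as high with a peak as without. At 1 to 2 kb these factors were 1.24 and 1.46, and at 8 to 16 kb 1.07 and 1.14. Islands up to 1 kb had fewer reads per kb with a peak than without, with factors of 0.906 for ChIP and 0.987 for the control.

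**Figure D4:**
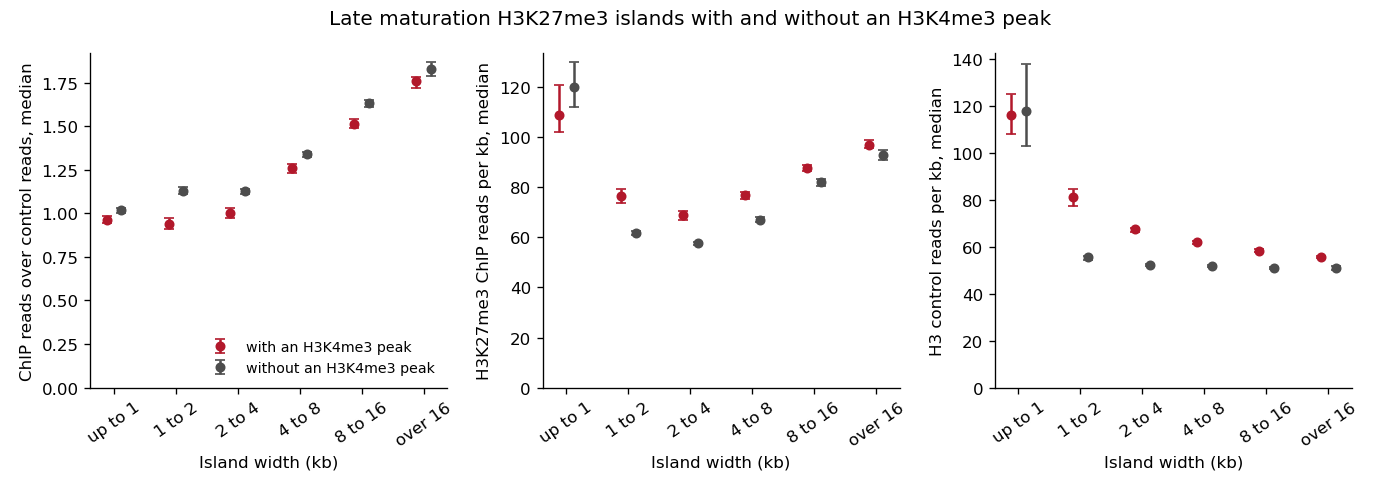
Median ratio of ChIP to control reads (left), H3K27me3 ChIP reads per kb (middle) and H3 control reads per kb (right) of late maturation islands in 6 classes of width, with (red) and without (grey) an H3K4me3 peak; lines are 95% intervals of the median. In the left panel the red point is below the grey one in each class, for example 1.26 against 1.34 at 4 to 8 kb, and in the right panel it is above it in 5 of 6 classes.

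The control reads went with how much of the island lay under peaks. Among islands of 4 to 8 kb, the control had 51.6 reads per kb without a peak, 55.3 with up to 5% of the island under peaks, 57.7 with 5 to 10%, 62.9 with 10 to 20% and 72.0 with more than 20%. ChIP reads per kb were 67.0, 75.7, 75.1, 78.2 and 77.9 in the same order. The ratio was 1.34, 1.36, 1.30, 1.25 and 1.12. By the highest score of a peak in the island, again at 4 to 8 kb, the ratio was 1.34 (1.30 to 1.39) for scores up to 10, 1.30 (1.26 to 1.34) for 10 to 50, and 1.13 above 50, with an interval below the other 2. The control had 57.7, 60.4 and 66.8 reads per kb in these groups. The part of the control reads in the lower ratio was not tested.

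These values also varied with where in the island the peak lay. The 3388 islands with an inside peak had a median width of 8200 bp and a ratio of 1.46 (1.44 to 1.48). The 1967 islands with border peaks only had 3200 bp and 1.03 (1.02 to 1.05), and the 11123 without a peak 3600 bp and 1.25. An inside peak needs an island wider than 1000 bp, so part of this order is set by the classes. At 4 to 8 kb the ratio was 1.32 (1.30 to 1.35) with an inside peak, 1.12 (1.09 to 1.16) with border peaks only and 1.34 (1.32 to 1.35) without a peak. There, islands with an inside peak and islands without one did not differ beyond their intervals, and those with border peaks only were lower.

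At the other stages, the ratio in most classes of width was higher with a peak than without. The count of classes in which it was higher with a peak was 6 of 6 at the cotyledon stage, 5 in early maturation, 5 in mid-maturation, 0 in late maturation and 4 in seedlings. At 4 to 8 kb the ratios with and without a peak were 2.60 and 2.31 at the cotyledon stage, 1.07 and 0.975 in early maturation, 2.55 and 2.16 in mid-maturation, 1.26 and 1.34 at late maturation, and 1.59 and 1.44 in seedlings. Control reads per kb at this width were 1.00 times as high with a peak as without at the cotyledon stage, 1.03 times in early maturation, 1.06 times in mid-maturation, 1.20 times at late maturation and 1.09 times in seedlings. Levels of the ratio depend on the depth of each library and are compared within a stage only.

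The places of late maturation peaks were next looked up in the other lists, counting 1 shared base. Of the 4471 inside peaks, 68.7% (67.3 to 70.0) had an H3K4me3 peak at the cotyledon stage, 76.6% in early maturation, 87.9% in mid-maturation and 88.1% (87.1 to 89.0) in seedlings. For outside peaks, whose scores were higher, these shares were 88.2%, 90.6%, 92.1% and 92.3%. An H3K27me3 island lay at 93.3%, 87.8%, 86.7% and 88.3% of the inside peaks, at 69.0%, 53.5%, 47.2% and 54.3% of the border peaks, and at 6.80%, 2.51%, 1.15% and 4.62% of the outside peaks. The islands kept at these stages covered 112, 87.2, 81.7 and 81.2 Mb, most at the cotyledon stage, and the shares were not adjusted for this. Both marks stood at 2311 of the inside peaks (51.7%, 50.2 to 53.2) at all 4 other stages. By contrast, 297 inside peaks (6.64%) had an H3K4me3 peak at no other stage, against 7.56% of border peaks and 4.83% of outside peaks. These 297 inside peaks were small, with a median width of 340 bp and a score of 8.55. The 2884 with a peak at each of the other stages had 626 bp and 19.5.

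**Figure D5:**
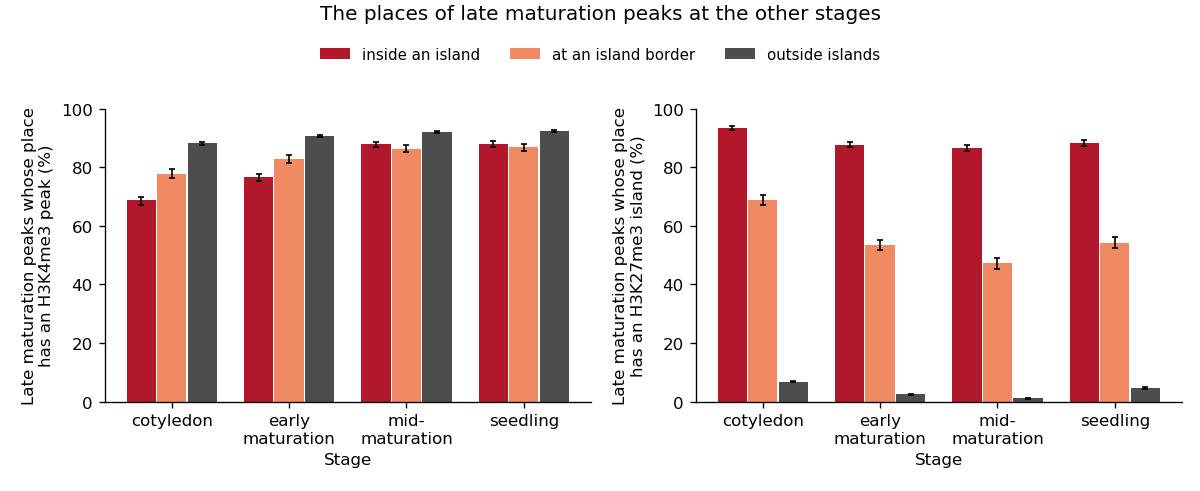
Share of late maturation H3K4me3 peaks whose place has an H3K4me3 peak (left) or an H3K27me3 island (right) at each other stage, in percent with 95% Wilson intervals, for peaks inside islands (red), at borders (orange) and outside islands (grey). Islands lie at 86.7% to 93.3% of the inside peaks and at 1.15% to 6.80% of the outside peaks, with border peaks in between.

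Inside peaks of higher and lower score were then looked up apart, and their shares with an island or a peak elsewhere are counted in 1 list each, with no test. Among the 578 inside peaks of the higher-scoring 50%, an island lay at the place of 83.4% at the cotyledon stage, 79.2% in early maturation, 70.6% (66.7 to 74.2) in mid-maturation and 71.3% (67.5 to 74.8) in seedlings. Among the 3893 of the lower-scoring 50% it was 94.8%, 89.1%, 89.1% (88.1 to 90.0) and 90.8% (89.9 to 91.7). An H3K4me3 peak lay at 92.7%, 93.3%, 97.4% and 98.1% of the 578, in the same order of stages. Of the 3893, 65.1%, 74.2%, 86.5% and 86.6% had one. Outside peaks were not split by score. No other stage had an island at 66 of the 578 (11.4%, 9.08 to 14.3) and at 100 of the 3893 (2.57%, 2.12 to 3.11). The islands around both groups had the same median width, 9400 bp, but a ratio of 1.30 for the higher-scoring peaks and 1.52 for the others, with 64.1 and 59.1 control reads per kb.

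Islands without a peak at late maturation could have one at another stage. Of the 11123, 9.36% held an H3K4me3 peak at the cotyledon stage, 11.7% in early maturation, 19.3% in mid-maturation and 20.9% in seedlings. Of the 5355 islands with a peak, 79.6%, 85.3%, 92.5% and 92.0% did. The lists differ in length, with 44248, 44752, 47697 and 52891 peaks in this order.

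Single regions were named by a rule on number of peaks, width, score and ratio, with positions counted from 1 as in the lists. The genome build of the lists is not given in the sources used here, and genes were not looked up. The island with the most peaks lay on chromosome 3 from 42975601 to 43012400. Its 36800 bp held 11 inside peaks of 309 to 1398 bp, with scores from 3.81 to 141, a median score of 25.1, and a ratio of 1.09 from 2652 ChIP and 2424 control reads. The next, on chromosome 13 from 37421201 to 37456600, held 8 peaks, 7 of them inside, with scores from 5.01 to 129, and had a ratio of 1.62. The strongest of its peaks, of 3044 bp, crossed the island's end. The last of the 3, on chromosome 9 from 2189001 to 2217600, held 8 peaks, 7 of them inside, with scores from 5.19 to 30.5, and had a ratio of 1.85. All 3 places had both marks at each of the other stages.

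The widest island, of 93800 bp, lay on chromosome 14 from 4062801 to 4156600. It had a ratio of 2.36 and held 5 inside peaks with scores of 8.43 to 36.0. The second, of 86800 bp on chromosome 18 from 58522601 to 58609400, had a ratio of 2.06 and no peak at late maturation, while 3 other stages had a peak in it. The next, of 70600 bp on chromosome 16 from 35720401 to 35791000, had a ratio of 1.98 and 4 inside peaks with scores from 9.49 to 162.

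The inside peak with the highest score, 207, had 1730 bp and lay on chromosome 16 from 35256521 to 35258250, in an island of 14600 bp with a ratio of 1.22. The second, with a score of 201, lay on chromosome 8 from 7360240 to 7362035, in an island of 24200 bp with a ratio of 1.58. Both places had an H3K4me3 peak at each other stage, but an H3K27me3 island at 1 other stage only, early maturation for the first and seedlings for the second. The third, also with a score of 201, lay on chromosome 6 from 8949579 to 8951496, in an island of 5600 bp with a ratio of 0.964, and its place had both marks throughout. The widest inside peaks, of 3112 bp on chromosome 5 (28174736 to 28177847), 3059 bp on chromosome 13 (33589111 to 33592169) and 3016 bp on chromosome 2 (45303729 to 45306744), had scores of 135, 157 and 141. Their islands had ratios of 0.858, 0.733 and 1.51, and the first of these peaks took up much of an island of 5000 bp.

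Among islands with at least 50 control reads, the highest ratios without a peak were 3.39 on chromosome 19 (39420001 to 39422200, with 285 ChIP and 84 control reads), 3.02 on chromosome 3 (7547201 to 7550400) and 2.95 on chromosome 8 (41659601 to 41661200). These places had an island and no H3K4me3 peak at each of the other 4 stages. With a peak, the highest ratios were 2.86 on chromosome 14 (45080001 to 45086800), 2.76 on chromosome 16 (9271801 to 9274600) and 2.75 on chromosome 15 (10347801 to 10367400). Each of these held 1 inside peak, with scores of 39.5, 39.2 and 8.91. The first and the second had a peak at each other stage, and the third in mid-maturation alone.

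Along the chromosomes, the share of inside peaks was lower towards the middle, and that of border peaks varied little. From the chromosome ends to the middle, in 5 steps of equal length taken from both ends, inside peaks were 11.4%, 11.6%, 10.3%, 8.49% and 7.37% of the peaks, and border peaks between 6.58% and 7.58%. Peaks themselves went from 17097 in the outermost step to 2550 in the middle one, and islands from 5823 to 1106. Islands with a peak were 36.6% in the outermost step and 28.4% in the middle one, with median island widths of 4600 and 3400 bp. In each of the 5 steps the control had more reads per kb in islands with a peak, between 60.1 and 62.1, than in islands without one, between 51.4 and 53.4. Over the 20 chromosomes, the inside share ran from 9.74% on chromosome 15 to 12.9% on chromosome 3, and the share of islands with a peak from 25.8% on chromosome 18 to 37.6% on chromosomes 4 and 13.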

How the data were processed

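Soybean embryos and seedlings were profiled by ChIP with antibodies to H3K4me3 (1 µg), H3K27me3 (10 µg) and H3 (3 µg), per the labels' protocols. The submitters' processing notes name Bowtie 0.12.7, SAMtools 0.1.19, MACS2 and SICER 1.1. The genome build is not given in the sources used here.

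H3K4me3 lists hold positions and, for each peak, the authors' deposited score, whose meaning is not stated. H3K27me3 lists (window 200 bp, gap 600 bp in their names) hold the deposited read counts of ChIP and control per island, with the authors' p-value and FDR and a fold that equals the ratio of the 2 counts times 1 constant per list (ratio to counts checked in every row). The control was taken as H3, which the series names as control. Mid-maturation lists were matched to their stage by the stage code in their names. Peak starts and island starts and ends are counted from 0 in the files, and 1 was added.

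Members, classes and named regions were chosen with earlier results of these data known. In each list the lowest 5% of islands by ChIP over control reads were dropped. Classes, counts and medians were computed with Python 3.11.15, numpy 2.4.6, pandas 2.3.3 and scipy 1.17.1, and the routines were tested on simulated regions. Shares have Wilson intervals, and medians have intervals from binomial order statistics, both at 95%. Limits of a difference of medians were taken from opposite limits of the medians compared, and are not a 95% interval of the difference. No test across samples was possible, since each list pools 2 replicates. Depth of single libraries is unknown. Kept late maturation islands held 8185030 ChIP and 5678157 control reads in all, with medians of 284 and 240 per island and lowest values of 32 and 16, so small islands have imprecise ratios. Named regions were the 3 islands with the most peaks, the 3 widest islands, the 3 inside peaks of highest score and the 3 of greatest width, and the 3 islands of highest ratio without and with a peak among those with 50 control reads or more. Alternatives concerned the islands and peaks kept, the border distance, the midpoint of a peak, the overlap, scaffolds and island width. RefSeq gene positions were not used, since the build of the lists is unknown.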

Additional observations from a re-analysis of the deposited data

Results flagged for a closer look

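The ratio of ChIP to control reads in islands over 4 and up to 8 kb was lower with an H3K4me3 peak than without one at late maturation, a difference of -0.0811 between the medians. It was higher with a peak at the other stages, by 0.291 at the cotyledon stage, 0.0930 in early maturation, 0.394 in mid-maturation and 0.150 in seedlings. The authors' fold is 1.32, 3.05, 1.48, 1.90 and 1.71 times the ratio in the order of the stages. Only the directions, not the sizes, are therefore compared between stages. Opposite directions in single pooled lists drew attention here, and the difference between stages was not tested. Control reads per kb at this width were 1.20 times as high with a peak as without at late maturation and between 1.00 and 1.09 times at the other stages, and their part was not tested.

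The 867 late maturation islands dropped for the lowest ratio are outside the main values and entered only the alternatives that kept more islands. Of the 867, 534 held an H3K4me3 peak, 61.6% (95% Wilson interval 58.3 to 64.8). Among the islands kept it was 32.5%. The dropped islands had a median width of 2800 bp and 81.1 control reads per kb. The same share of dropped islands was 16.9% at the cotyledon stage, 31.3% in early maturation, 27.8% in mid-maturation and 39.4% in seedlings, where the islands kept had 31.2%, 38.0%, 41.6% and 42.2% in this order. Dropped islands thus had the higher share at late maturation and the lower share at the other 4 stages, and the difference was not tested. The deposited lists differ in their limit. Among dropped islands, 474 at late maturation and 310 in seedlings had a deposited FDR above 0.05. At the cotyledon stage, in early maturation and in mid-maturation the count was 0. The last island dropped had a fold over control of 1.43, 1.76, 1.59, 1.26 and 1.34 in the order of the stages. The part of these limits in the shares of dropped islands was not tested.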

How the results depend on the processing

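No paired analysis was possible because the 2 replicates of a stage share 1 list per mark, and leaving out a replicate was not run for the same reason. Over 58 values under alternatives, 27 stayed within the interval of the reported value, 27 left it with the same direction and 4 turned round. For differences of medians, the limits taken from both medians served as the interval. The cause of the changes was not tested, except that a shorter list or another border distance changes the classes by construction.

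Inside peaks (10.8%) were 11.2% with all islands, 10.4% without the lowest 10% of islands, 7.62% with the 50% of islands of higher ratio, 2.79% with the 50% of peaks of higher score, 12.1% with a border of 250 bp, 8.68% with 1000 bp and 13.1% by peak midpoints. Border peaks (6.97%) were 8.14%, 6.10%, 2.56%, 5.52%, 5.25%, 10.8% and 4.06% under these settings, and 7.44% with the FDR limit of 0.05. Islands with a peak (32.5%) were 34.0% with all islands, 31.7% without the lowest 10%, 33.9% and 9.10% with the stricter islands and the stricter peaks, and 31.4% both by midpoints and with 50% of the peak shared. The median width of inside minus outside peaks (-371 bp) was -306 bp by midpoints and 31.0 bp with the stricter peaks. The median width of islands with minus without a peak (2600 bp) was 2000 bp with all islands, 3000 bp without the lowest 10%, 2200 bp with the FDR limit and with the stricter peaks, and 3800 bp with the stricter islands. The median ratio with minus without a peak (0.0492) turned to -0.00189 with all islands, -0.138 with the stricter peaks and -0.0443 within 2 to 10 kb. Peaks of at least 200 bp and chromosomes without scaffolds moved none of the 6 values out of its interval.

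Depth limits the ratio of small islands, and the number of libraries limits every comparison between classes and stages.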

Other observations

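Late maturation islands differed in how many other stages had an island at the same place, and this went with the H3K4me3 peaks in them. The 10969 islands present at all 4 other stages (66.6% of the kept islands) held a peak in 38.9% of cases (95% Wilson interval 38.0 to 39.8), with a median island width of 5800 bp. The 700 islands present at no other stage held one in 17.6% (14.9 to 20.6), with a median width of 2200 bp, so width differs between these groups as well. Those seen at 1, 2 and 3 other stages held a peak in 15.5%, 21.1% and 21.5% of cases.

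In islands found at late maturation alone, the ratio of ChIP to control reads was 0.774 with a peak and 0.904 without one. In islands found at each stage it was 1.42 with a peak and 1.44 without. Control reads per kb were 68.5 with a peak and 58.1 without one in the first group, and 60.2 and 51.8 in the second. The median over islands of the highest peak score was 29.3 in islands of late maturation alone and 25.8 in those found throughout.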
